A study of Mus musculus with 29 samples.

Results

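Gene expression in the prefrontal cortex of TgS mice was set against that of TgR mice on 8 of the 29 Affymetrix arrays of the series, 4 arrays per line. The arrays were taken by title, the naive prefrontal controls 1 to 4 of each line. Both lines carry human acetylcholinesterase on the FVB/N background, TgS the AChE-S variant and TgR the AChE-R variant. Both groups are labelled naive, in contrast to the MPTP-exposed mice of the series, whose arrays are quoted below for comparison. By the protocol, MPTP was given in 4 injections of 20 mg/kg at intervals of 2 h, 80 mg/kg in all. The protocol gives 6 mice per strain and arm and a time of 4 days after injection. The 4 naive prefrontal arrays of FVB/N, the parent strain without a transgene, are quoted for reference and were not part of the test of the line difference. The promoter that drives each transgene, the number of founders behind each line, the number of mice per array and the age and sex of the mice were not stated in the sources used here. Nothing in the labels says that the arrays of a group came from separate mice, so the p-values measure the spread between these arrays, which may be technical. The RNA came from whole dissected tissue, in which fewer cells of a type and less RNA per cell cannot be told apart.

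Acetylcholinesterase hydrolyses acetylcholine and so ends cholinergic signalling, which in the prefrontal cortex comes mainly from axons of the basal forebrain. Splicing at the end of its transcript gives proteins that share the catalytic core and differ in their tails. The synaptic form, AChE-S, assembles into multimers that are anchored at membranes by partner proteins. The readthrough form, AChE-R, remains soluble and monomeric and is known to accumulate after stress and after block of the enzyme.

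The arrays fall into 2 sets, controls 1-2 and controls 3-4 of each line, whose source labels spell the region differently. What parted the sets is not stated there. The Y-linked Eif2s3y read 3.43 to 3.83 (log2 signal) in controls 1-2 and 8.73 to 8.85 in controls 3-4. Xist, expressed from the inactive X chromosome, read 9.45 to 10.61 and 7.19 to 7.24. By these transcripts controls 1-2 read as female and controls 3-4 as male, so set and sex cannot be told apart here. Controls 1-2 of the 2 lines also stood apart from each other. In both TgS controls 1-2, 379 transcripts lay more than 1 log2 unit above each of the other 27 arrays, against 0 to 9 transcripts in the other naive prefrontal pairs. In TgR controls 1-2, 25 transcripts lay as far below the other 27 arrays, against 10 in TgS controls 1-2. The dap poly-A controls had a mean of 3.99 and 4.02 in TgS controls 1-2 and 3.81 and 3.96 in FVB/N controls 1-2, but 7.20 to 7.63 in TgR controls 1-2. The middle actin control read 12.80 to 13.05 in TgS, 11.45 in FVB/N and 9.88 to 10.64 in TgR of that set. The 5′ minus 3′ difference, a sign of RNA integrity, was lowest of all 29 arrays in TgR control 2 for actin (-2.30) and Gapdh (-0.66). In controls 3-4 the lines were close in the dap mean (6.36 to 6.68) and the middle actin control (11.43 to 11.52). The part of these differences between arrays in the line difference was not tested. Each result is therefore given in a fit of all 29 arrays with a term for the set, in which the line difference is the mean of the differences within the sets, and again within controls 3-4 alone. The latter arrays are in both fits, so the fits are not independent evidence.

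The tissue carried its label. The cortical projection neuron genes Neurod6, Tbr1 and Fezf2 read 9.66 to 10.75, 9.50 to 10.38 and 8.20 to 8.98 in the 8 arrays, against 5.13 to 6.99, 7.03 to 7.97 and 6.11 to 6.93 in the 4 naive caudate-putamen arrays of the same lines. The striatal genes Drd2 (6.29 to 8.10 against 10.74 to 11.43) and Ppp1r1b (9.09 to 9.82 against 11.95 to 12.48) and the choroid plexus gene Ttr (7.94 to 9.02 against 12.12 to 13.87) were lower than there.

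TgS prefrontal cortex had less of the lysophospholipase gene Gdpd3, of Erdr1, of the troponin gene Tnnt2 and of the molybdopterin synthase gene Mocs2 than TgR cortex, and more of the immunoglobulin heavy chain gene Ighm, of the glyoxalase gene Glo1 and of Ccdc59, in both sets of arrays. Among cell type markers, astrocyte genes were lower in TgS, led by Gfap (2.25-fold). A group of activity-regulated genes was higher, with Egr1 1.69-fold and Bdnf 1.42-fold higher within controls 3-4. In limma, 4210 of 22626 transcripts were called at a Benjamini-Hochberg adjusted p under 0.05 in the 29-array fit (18.6%; 1580 higher in TgS, 2630 lower), and 1084 within controls 3-4 (4.79%; 373 higher, 711 lower). A block on the replicate number gave 2243 and 548. Without TgS control 2, TgR control 2 or TgR control 1 the first count was 2086, 2107 or 2448, and without TgR control 4, TgS control 3 or TgS control 4 the second was 196, 313 or 366. Of 12393 genes, 2379 (19.2%) and 678 (5.47%) were called, and 400 (3.23%) were called with the same sign in both fits, 91 of them higher (0.734%) and 309 lower (2.49%) in TgS. In 164 of these 400 genes (1.32% of all) the 4 TgS arrays and the 4 TgR arrays did not overlap, with 49 higher and 115 lower. The 12 largest differences in each direction among these 164 are described first.

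**Figure D1:**
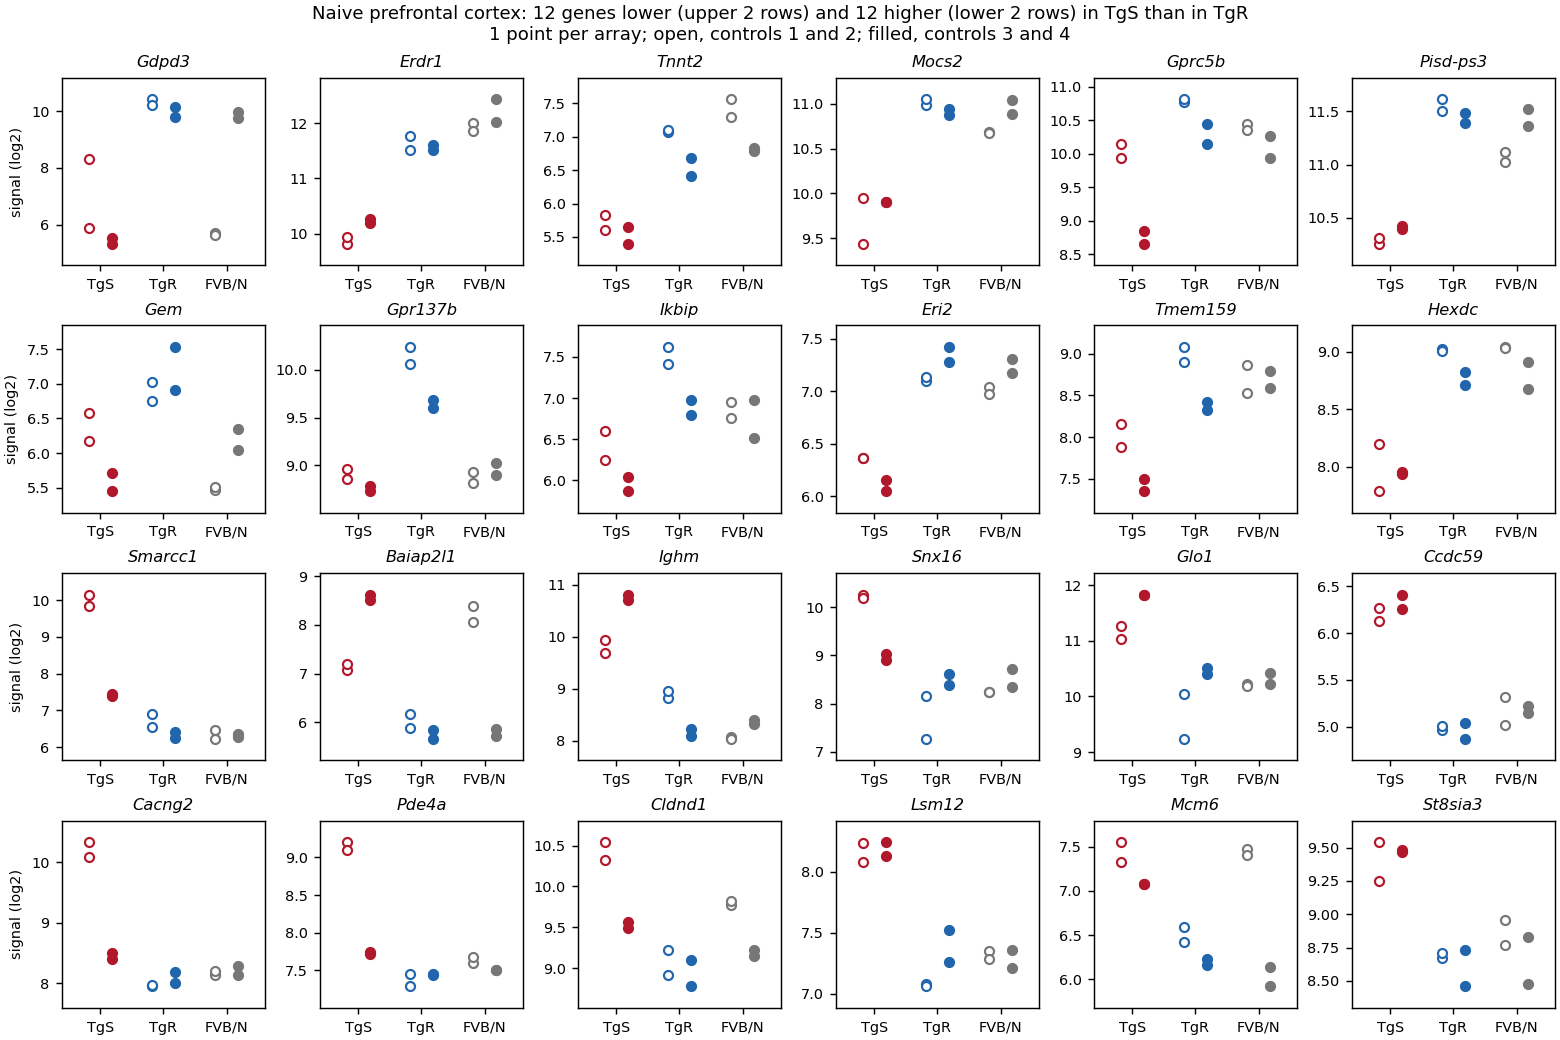
Log2 signal per array of the 12 genes most reduced (upper 2 rows) and the 12 most raised (lower 2 rows) in TgS, for TgS, TgR and FVB/N naive prefrontal cortex; open points are controls 1-2, filled points controls 3-4. The 4 TgS and 4 TgR arrays do not overlap in any panel, which the choice of genes required, and FVB/N controls 1-2 lie with TgS for Gdpd3, Baiap2l1 and Mcm6 while FVB/N controls 3-4 lie with TgR.

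All log2 signals that follow are in the order controls 1 to 4, and ± gives the standard error of the fitted log2 difference, TgS minus TgR. Gdpd3, which encodes a lysophospholipase D, read 5.90, 8.32, 5.52 and 5.34 in TgS and 10.41, 10.22, 9.78 and 10.15 in TgR. The TgR arrays lay close together, and TgS control 2 stood above its group. The difference was -3.87 ± 0.76 over 29 arrays (adjusted p = 0.00323) and -4.54 ± 0.15 within controls 3-4 (adjusted p = 1.66e-11), where the TgS level was 23.2-fold lower. FVB/N was itself divided, with 5.70 and 5.63 in controls 1-2 and 9.98 and 9.76 in controls 3-4. The parent strain therefore lay with TgS in one set and with TgR in the other.

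Erdr1, named for erythroid differentiation, read 9.82, 9.93, 10.20 and 10.27 in TgS and 11.76, 11.52, 11.61 and 11.52 in TgR, against 11.86 to 12.43 in FVB/N. All TgS arrays were below all TgR and FVB/N arrays. It was 2.92-fold lower over 29 arrays (-1.55 ± 0.12, adjusted p = 4.29e-07) and 2.51-fold lower within controls 3-4. Tnnt2, cardiac troponin T, read 5.61, 5.83, 5.65 and 5.40 in TgS and 7.08, 7.10, 6.69 and 6.42 in TgR. Its difference was -1.20 ± 0.11 (adjusted p = 1.42e-06) and -1.03 ± 0.13 (adjusted p = 3.08e-04), and a second Tnnt2 probe set showed -2.07 and -1.80. Both probe sets thus placed TgS below TgR in both fits. Mocs2, a subunit of the enzyme that makes the molybdenum cofactor, read 9.44, 9.95, 9.90 and 9.90 in TgS and 10.99, 11.05, 10.94 and 10.88 in TgR. The groups lay far apart for their spread and the reduction was 2.25-fold over 29 arrays and 2.01-fold within controls 3-4 (-1.01 ± 0.07, adjusted p = 1.19e-07). A second Mocs2 probe set was not called in either fit (0.07 and 0.41), so the 2 probe sets of this gene disagree.

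The other 8 of the largest reductions differed by 1.89-fold to 2.22-fold over 29 arrays. Gprc5b, an orphan G-protein-coupled receptor, read 9.93, 10.14, 8.66 and 8.84 in TgS and 10.78, 10.81, 10.15 and 10.44 in TgR, -1.54 ± 0.20 within controls 3-4. Its TgS level moved with the set by more than a log2 unit while TgR moved less, and its second probe set was not called (-0.24 and -0.63). Eri2, an exoribonuclease gene, read 6.37, 6.37, 6.16 and 6.05 in TgS and 7.10, 7.14, 7.28 and 7.42 in TgR, -1.25 ± 0.08 within controls 3-4 (adjusted p = 1.11e-07). Another Eri2 probe set was called lower in both fits (-0.94 and -0.75), and a further probe set in neither (-0.17 and -0.37). Tmem159, which encodes a lipid droplet protein, read 7.88, 8.16, 7.35 and 7.49 against 8.90, 9.08, 8.32 and 8.42. The 2 lines shifted with the set in parallel there, and the difference was -0.96 ± 0.12 and -0.95 ± 0.11 in the 2 fits. Gprc5b, Eri2 and Tmem159 lie near each other in the RefSeq gene order. The stretch from Gprc5b to Tmem159 holds 11 measured genes, 4 of them called in both fits, against 3.23% of all genes. The named genes are among these 4 and were chosen for being called in both fits, so the count is not a test of the stretch.

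Gpr137b, which encodes a lysosomal membrane protein, read 8.96, 8.86, 8.73 and 8.78 in TgS, 10.06, 10.24, 9.60 and 9.69 in TgR, and 8.82 to 9.02 in FVB/N. Here TgR was the line that stood apart, with TgS and the parent strain together. The difference was -1.06 ± 0.09 and, within controls 3-4, -0.89 ± 0.08 (adjusted p = 8.22e-06). Its probes may also match the copy Gpr137b-ps, so the assignment to this gene is uncertain. Pisd-ps3, a pseudogene related to phosphatidylserine decarboxylase with the same uncertainty, was lower by -1.15 ± 0.12 and -1.02 ± 0.15. Hexdc, a hexosaminidase gene, was lower by -0.92 ± 0.08 and -0.82 ± 0.09, and Ikbip, which encodes a partner of an inhibitor-kappa-B kinase, by -1.01 ± 0.13 and -0.94 ± 0.15. Gem, a small GTPase that restrains voltage-gated calcium channels, read 6.58, 6.17, 5.71 and 5.45 in TgS and 6.75, 7.03, 6.91 and 7.53 in TgR. The lines nearly met in controls 1-2 and were 3.12-fold apart in controls 3-4 (-1.64 ± 0.20, adjusted p = 1.51e-04).

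Ighm, the constant region of the immunoglobulin mu heavy chain, read 9.93, 9.69, 10.70 and 10.81 in TgS, 8.83, 8.95, 8.23 and 8.10 in TgR, and 8.04 to 8.40 in FVB/N. TgS was the high line in both sets, by 1.76 ± 0.21 over 29 arrays (adjusted p = 4.74e-05) and by 2.59 ± 0.12 within controls 3-4, a 6.02-fold difference. Of 11 Ighm probe sets, 3 were called higher over 29 arrays (1.76, 1.14 and 1.01), and the mean of all of them differed by 0.38. The B-cell gene Cd79a was measured and not called in either fit. Glo1, the glyoxalase that detoxifies methylglyoxal, read 11.03, 11.27, 11.82 and 11.83 in TgS and 10.05, 9.24, 10.51 and 10.40 in TgR, with 10.19 to 10.43 in FVB/N. It was 2.71-fold higher over 29 arrays (1.44 ± 0.17, adjusted p = 3.24e-05) and 2.58-fold within controls 3-4, and all 3 of its probe sets were called higher over 29 arrays.

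Ccdc59 read 6.27, 6.13, 6.41 and 6.26 in TgS and 4.96, 5.01, 5.04 and 4.87 in TgR. The sets did not part these values, and the difference was 1.30 ± 0.09 (adjusted p = 1.39e-07) and 1.38 ± 0.12 (adjusted p = 3.44e-06). Lsm12 read 8.23, 8.08, 8.13 and 8.24 against 7.08, 7.06, 7.52 and 7.26, with TgR higher in controls 3-4 than in controls 1-2. St8sia3, a sialyltransferase that builds sialic acid chains on glycoproteins and glycolipids, read 9.54, 9.25, 9.48 and 9.47 against 8.67, 8.71, 8.73 and 8.46, 0.79 ± 0.10 and 0.88 ± 0.14. Mcm6, a subunit of the replicative helicase, read 7.55, 7.33, 7.08 and 7.08 against 6.59, 6.42, 6.23 and 6.16, and FVB/N again split, with 7.47 and 7.41 in controls 1-2 and 6.14 and 5.92 in controls 3-4. Ccdc59 lies on the same chromosome as Ikbip, which fell, with 36 measured genes between them.

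Several of the largest increases depended on the set in size. Smarcc1, a core subunit of the SWI/SNF chromatin remodeller, read 10.15, 9.85, 7.45 and 7.40 in TgS and 6.55, 6.90, 6.26 and 6.42 in TgR. It was 3.28 higher in controls 1-2 and 1.08 ± 0.13 higher in controls 3-4, and the test of the difference between the sets was passed. A second Smarcc1 probe set was 0.55 higher in controls 1-2 and 0.48 higher in controls 3-4. The size of the Smarcc1 difference and its change with the set therefore rest on the probe set used. Baiap2l1, an actin-bundling adaptor, went the other way, at 7.07, 7.19, 8.51 and 8.62 in TgS and 5.89, 6.16, 5.84 and 5.66 in TgR. That was a 7.04-fold difference in controls 3-4 (2.82 ± 0.11, adjusted p = 1.34e-10), and FVB/N controls 1-2 (8.38 and 8.06) lay within the TgS range. The endosomal Snx16, the AMPA receptor auxiliary subunit gene Cacng2 and the cAMP phosphodiesterase gene Pde4a were 0.46, 0.35 and 0.28 higher within controls 3-4 but 2.52, 2.24 and 1.78 higher within controls 1-2. All 3 lost their call within controls 3-4 when the replicate number was a block. Cldnd1, a claudin-domain gene, was 0.59 ± 0.08 and 1.36 higher in controls 3-4 and 1-2. Another Cldnd1 probe set was 0.47 higher in controls 3-4, called, and 0.08 higher in controls 1-2, uncalled. A further probe set was uncalled in both (0.22 and -0.17). The change of the Cldnd1 difference with the set therefore rests on the probe set used.

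The same lines were also profiled after MPTP in the prefrontal cortex and, unexposed, in the caudate-putamen, 2 arrays per line in each. The line differences on these 8 arrays were not used to choose the genes, although the arrays lent their spread to both fits and entered the mean by which a gene's probe set was picked. The signs matched in 23 of the 24 genes in the MPTP prefrontal cortex and 15 were called there, where 1.14% of all transcripts and 1.24% of all genes were called. In the caudate-putamen 23 of 24 had the same sign and 12 were called, against 0.773% of all transcripts and 0.831% of all genes. Tnnt2 differed by -1.42 and -1.56 in these 2 tissues (adjusted p = 3.7e-05 and 2.3e-05) and Mocs2 by -1.23 and -1.35 (adjusted p = 1.7e-05 and 2e-05). These sizes were close to those in the naive prefrontal cortex. After MPTP the TgS arrays gave 6.40 and 6.23 for Gdpd3 and the TgR arrays 9.89 and 10.31. In the caudate-putamen they gave 6.08 and 6.40, and 9.95 and 9.95. Its groups were about as far apart as in the naive prefrontal cortex, although the adjusted p of the 29-array fit, which shares 1 spread over all groups, was 0.112 and 0.147.

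The genes of opposite sign were Cacng2 after MPTP (-0.09, adjusted p = 0.998) and St8sia3 in the caudate-putamen. Glo1 differed by 1.36 in the caudate-putamen (adjusted p = 0.00562) but read 10.36 and 10.84 in TgS and 10.46 and 10.30 in TgR after MPTP (0.22, adjusted p = 0.919). The high Glo1 level of TgS was thus not seen in its MPTP prefrontal arrays. St8sia3 differed by 0.88 after MPTP (adjusted p = 0.00309) and by -0.10 in the caudate-putamen (adjusted p = 0.965), where TgS read 10.87 and 10.37 and TgR 10.61 and 10.83. Whether these differences between tissues or treatments exceed their error was not tested. Over all 1084 transcripts called within controls 3-4, 118 (10.9%) were called with the same sign after MPTP and 1 with the opposite sign, and 83 (7.66%) and 1 in the caudate-putamen.

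**Figure D2:**
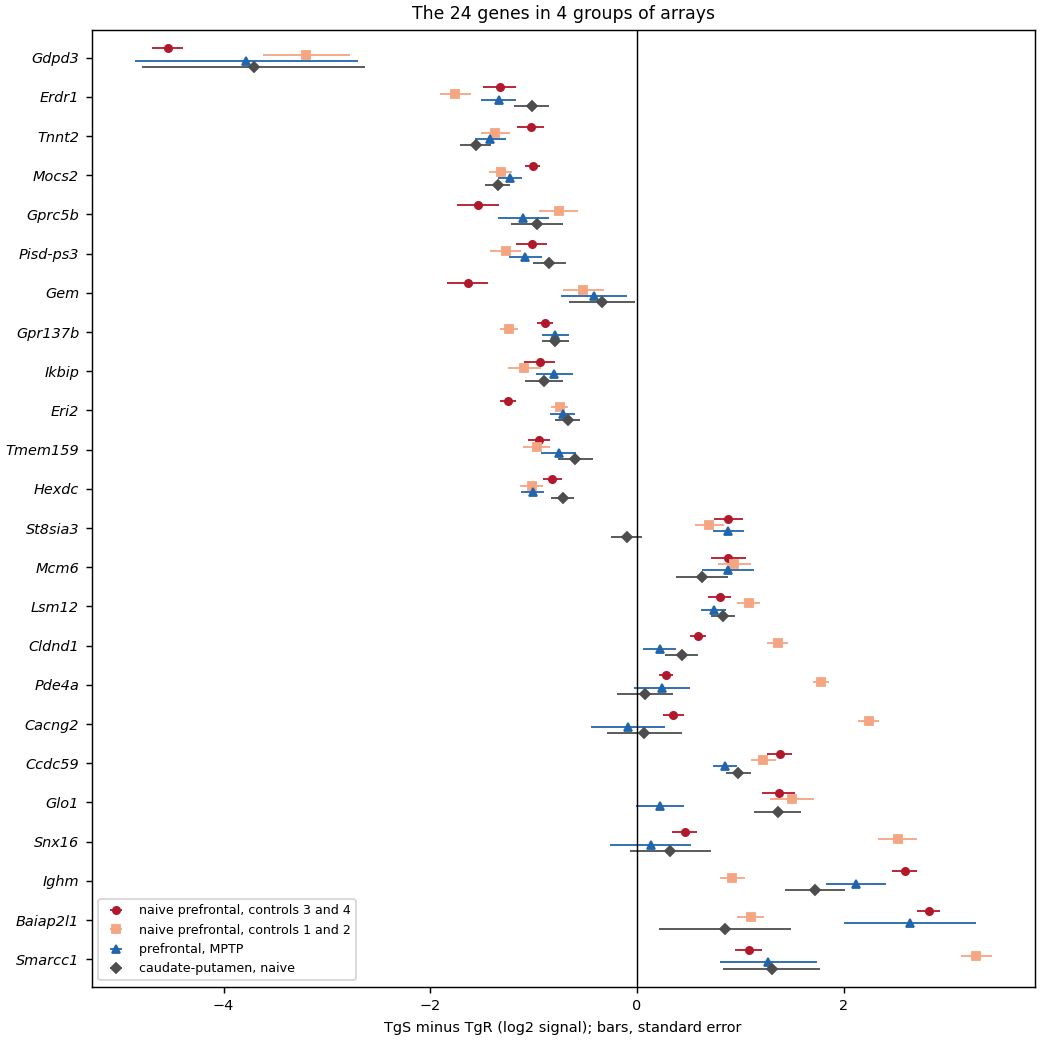
Fitted log2 difference, TgS minus TgR, with its standard error for the 24 genes in 4 groups of arrays: naive prefrontal controls 3-4, naive prefrontal controls 1-2, MPTP-exposed prefrontal cortex and naive caudate-putamen. The reductions of Erdr1, Tnnt2 and Mocs2 are seen in all 4 (Erdr1 at -1.33, -1.76, -1.34 and -1.02), while Glo1 falls to 0.22 after MPTP and St8sia3 to -0.10 in the caudate-putamen.

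Astrocytes take up glutamate, buffer potassium and wrap vessels with their end feet. Of 21 astrocyte genes measured (of 22 listed), 12 fell in TgS over 29 arrays and none rose, with a median difference of -0.30, against 14.4% of all genes called lower and a median of -0.06 over all genes. Within controls 3-4, 7 fell and none rose, with a median of -0.26 against 3.86% of all genes and a median of -0.01. The 4 called lower in both fits were Gfap, Slc1a3, Aqp4 and Apoe. Gfap, the intermediate filament of astrocytes, read 9.68, 9.55, 8.27 and 8.14 in TgS and 10.60, 10.89, 9.35 and 9.48 in TgR. Both lines were lower in controls 3-4, and TgS lay below TgR in each set, 2.31-fold within controls 3-4 (-1.21 ± 0.18, adjusted p = 0.000823). A second Gfap probe set gave -0.86 and -0.88.

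Slc1a3, the glial glutamate transporter GLAST, read 11.04, 11.01, 11.38 and 11.51 in TgS and 11.79, 11.87, 11.83 and 11.96 in TgR. The difference was -0.63 ± 0.07 and -0.45 ± 0.09, while 2 weaker Slc1a3 probe sets were uncalled and above 0 over 29 arrays (0.50 and 0.75) and fell within controls 3-4 (-0.40 and -0.38). Aqp4, the water channel of end feet, read 10.11, 10.24, 9.76 and 9.90 against 10.58, 10.63, 10.36 and 10.39. It differed by -0.49 ± 0.08 and -0.55 ± 0.10, and its second probe set, not called, also turned sign between the fits (1.11 and -0.56). The direction of Slc1a3 and Aqp4 over 29 arrays therefore rests on the probe set used, and the mean of the probe sets was higher in TgS (0.21 and 0.31). Apoe, the main lipid carrier of the brain, read 13.08, 13.20, 12.96 and 13.10 against 13.34, 13.04, 13.39 and 13.43, -0.21 ± 0.07 and -0.38 ± 0.07. Its arrays overlapped in controls 1-2, and with the replicate number as a block its adjusted p over 29 arrays was 0.0971.

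Within controls 3-4 alone, the astrocyte transcription factor gene Sox9 (-0.55 ± 0.09, adjusted p = 0.00207), the bicarbonate cotransporter gene Slc4a4 (-0.55 ± 0.11) and the filament gene Vim (-0.67 ± 0.15) also fell. The growth factor receptor gene Fgfr3 (-0.39), Mlc1 (-0.44), the connexin gene Gja1 (-0.35), Acsbg1 (-0.34), Clu (-0.28), Ntsr2 (-0.27), S100b (-0.44) and Mt3 (-0.50) fell over 29 arrays and were not called within controls 3-4. S100b was at -0.01 there. The mean log2 signal over the 21 genes was 10.76, 10.72, 10.53 and 10.59 in TgS, 11.05, 11.03, 10.82 and 10.91 in TgR and 10.69 to 10.87 in FVB/N. TgR was the highest of the 3 strains in controls 1-2, and in controls 3-4 TgR and FVB/N overlapped. In the MPTP prefrontal cortex 0 of the 21 were called in limma (2 higher and 4 lower at an unadjusted p under 0.05; median 0.00), with Gfap at -0.52 (adjusted p = 0.416). Leaving out TgR control 4 left 1 call within controls 3-4, and leaving out TgS control 3 left 2, with medians of -0.23 and -0.25. The block left 10 and 6.

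**Figure D3:**
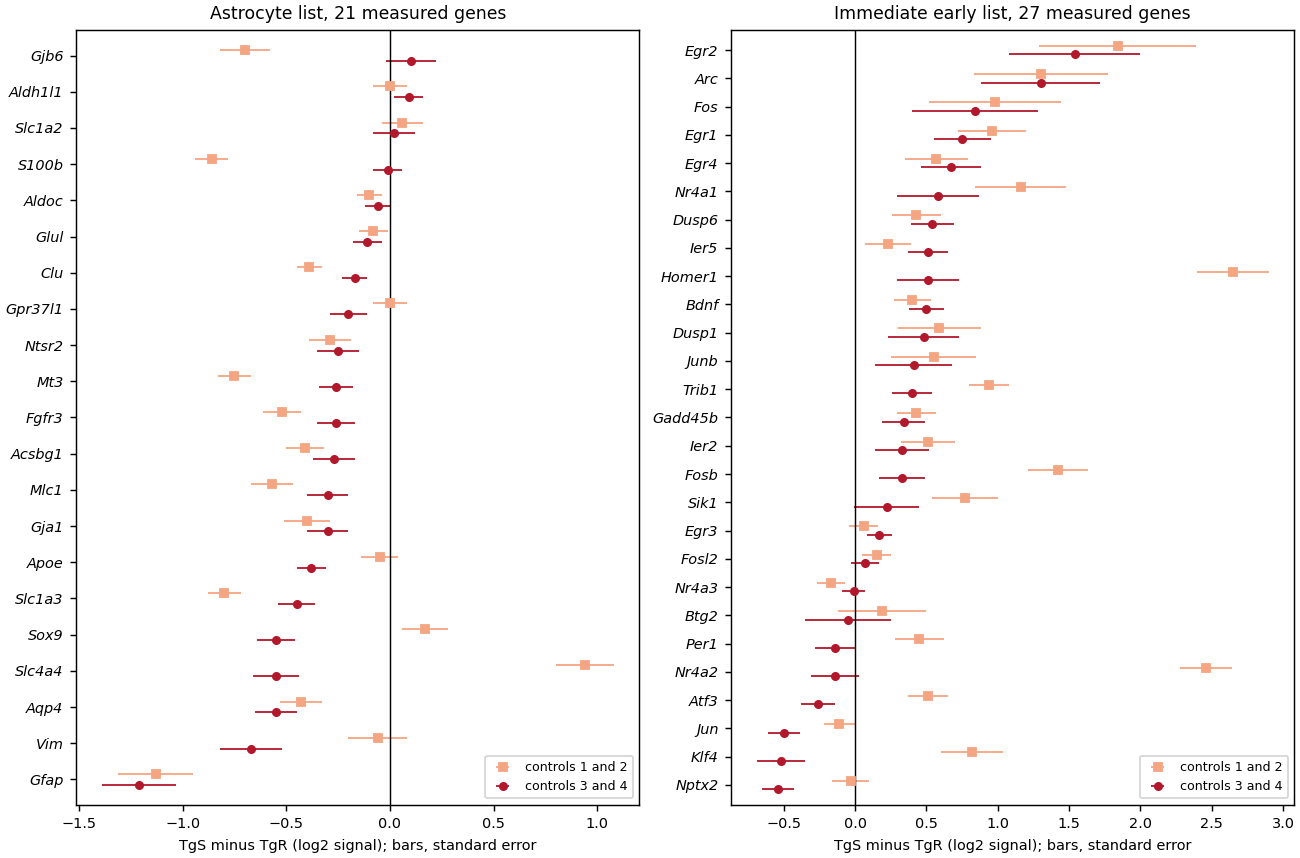
Fitted log2 difference, TgS minus TgR, with its standard error within controls 3-4 and within controls 1-2, for 21 astrocyte genes and 27 immediate early genes. Most astrocyte genes lie below 0 and most immediate early genes above 0 in both sets, with Slc4a4 (0.94 in controls 1-2, -0.55 in controls 3-4) and Nr4a2 (2.46 and -0.14) among those that change side.

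Genes of vessels and of the meninges were also lower in TgS. Of 24 endothelial and mural genes, 6 fell and none rose over 29 arrays, and 7 fell and none rose within controls 3-4 (14.4% and 3.86% of all genes fell; median -0.18 and -0.19). Vcam1, the adhesion molecule through which leukocytes bind endothelium, read 8.19, 8.09, 7.97 and 8.05 in TgS and 8.92, 9.02, 8.56 and 8.59 in TgR. The groups did not overlap, and the difference was -0.70 ± 0.08 and -0.57 ± 0.10 (adjusted p = 0.00334). Other Vcam1 probe sets were uncalled over 29 arrays (-0.23 and -0.09). Within controls 3-4 they were at -0.40, called, and -0.12, uncalled. Abcb1a, the P-glycoprotein of the blood-brain barrier, read 8.30, 8.24, 7.82 and 7.72 against 8.71, 8.82, 8.27 and 8.31, -0.52 ± 0.12 within controls 3-4. The angiopoietin receptor gene Tek (-0.65 and -0.78), Pltp (-0.44 and -0.64) and Vtn (-0.42 and -0.70) were the others called in both fits. Flt1, a VEGF receptor, fell within controls 3-4 (-0.81) and was 1.42 higher in controls 1-2. Without TgR control 2 the 29-array count was 2, and within controls 3-4 it was 1 without TgS control 3 or TgR control 4 and 3 without TgS control 4.

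Of 16 meningeal and fibroblast genes, 5 fell over 29 arrays and 3 within controls 3-4, with none higher (14.4% and 3.86% of all genes fell; median -0.30 and -0.22). Islr, a fibroblast matrix gene, read 10.30, 10.22, 8.54 and 8.59 in TgS and 10.50, 10.34, 9.45 and 9.86 in TgR. The lines nearly met in controls 1-2 and were -1.09 ± 0.14 apart in controls 3-4 (adjusted p = 0.000291). Lum, the proteoglycan lumican, read 5.88, 6.09, 6.18 and 6.25 against 7.34, 7.19, 6.74 and 6.65, with the wider gap in controls 1-2 (-1.28 against -0.48). Aldh1a2, which makes retinoic acid, differed by -0.62 and -0.61, and lost its call within controls 3-4 with the block, which left 2 calls there. Leaving out any array of controls 3-4 left 1 call there.

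Interferon-induced and MHC class I genes fell over 29 arrays in 11 of 23 cases, and in 2 of 23 within controls 3-4, with none higher (14.4% and 3.86% of all genes fell; median -0.24 and -0.16). Ifitm3, an interferon-induced membrane protein that restricts virus entry, read 9.34, 9.31, 8.56 and 8.37 in TgS and 10.05, 10.13, 9.01 and 9.44 in TgR. It was 1.69-fold lower within controls 3-4 (-0.76 ± 0.15, adjusted p = 0.00996) but 0.27 higher after MPTP without passing the test there. Psmb9, an immunoproteasome subunit, read 6.51, 6.79, 5.99 and 5.96 against 7.33, 7.29, 6.33 and 6.49, -0.55 ± 0.09 and -0.44 ± 0.07. Gbp2 and Ifitm2 (-0.51 and -0.65 over 29 arrays) and B2m, the MHC class I light chain (-0.25), were not called within controls 3-4, where B2m was at -0.04. The block left 6 of the 11 calls. Without TgR control 1 and without either TgS control 1 or 2 there were 6, and without TgR control 2 there were 7. Within controls 3-4 there were 0 without TgR control 4 and 1 without TgS control 4.

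Microglia and myelin genes fell over 29 arrays, and none was called within controls 3-4. Of 16 microglia genes 9 fell and 1 rose over 29 arrays (14.4% and 4.78% of all genes; median -0.31), and within controls 3-4 limma called 0 (1 higher and 3 lower at an unadjusted p under 0.05; median -0.12). The test of the difference between the sets called 8 of the 16, against 2384 of all 12393 genes. Tyrobp, the signalling adaptor of TREM2, read 8.87 to 9.07 in the 4 TgS arrays, 9.92 or more in TgR controls 1-2, and 9.09 and 9.29 in TgR controls 3-4. TgR was the line that differed between the sets, and the gap was -0.95 in controls 1-2 and -0.25 in controls 3-4 (adjusted p = 0.239). The fractalkine receptor gene Cx3cr1 was 1.22 higher in controls 1-2 and at -0.12 in controls 3-4. Of 16 oligodendrocyte and myelin genes 8 fell over 29 arrays (14.4% of all genes; median -0.25), led by Aspa, which cleaves N-acetylaspartate (-0.69, adjusted p = 0.00343, and -0.53, adjusted p = 0.0704). Within controls 3-4 limma called 0 (5 lower at an unadjusted p under 0.05; median -0.23), and the block left 4 microglia and 1 myelin gene lower over 29 arrays. Leaving out 1 of TgR controls 1 or 2 or of TgS controls 1, 2 or 3 left 3 to 6 microglia genes lower, and leaving out 1 of these or of TgR control 4 left 1 to 5 myelin genes lower.

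Immediate early genes are transcribed within minutes of synaptic activity, and many carry cAMP response elements, the sites bound by CREB. In TgS, 13 of 27 measured (of 30 listed) rose over 29 arrays and 1 fell, with a median of 0.48, against 4.78% of all genes called higher. Within controls 3-4, 3 rose and 2 fell (median 0.34, against 1.61% of all genes called higher). The genes below other than Egr1, Bdnf, Trib1 and Homer1 were named after their values were seen. As context for the higher activity-regulated genes, the promoters of 4 members that rose over 29 arrays are shown, of which Bdnf alone was also called within controls 3-4. Only windows that hold the half-site described below were eligible, and each gene is shown for a single annotated start. That these windows hold a match is therefore not a result. The chromosome that carries Egr1 was left out, so the Egr1 promoter is not shown. Eligible windows of Fosb, Homer1 and Nr4a2 are also not shown. The windows run from 250 bases before to 50 after the annotated start in RefSeq (GRCm38.p6), 5′ to 3′ on the strand of the gene, with the half-site of the cAMP response element, TGACG, or its reverse complement CGTCA, in capitals.

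Bdnf, chr2:109692186-109692485, plus strand: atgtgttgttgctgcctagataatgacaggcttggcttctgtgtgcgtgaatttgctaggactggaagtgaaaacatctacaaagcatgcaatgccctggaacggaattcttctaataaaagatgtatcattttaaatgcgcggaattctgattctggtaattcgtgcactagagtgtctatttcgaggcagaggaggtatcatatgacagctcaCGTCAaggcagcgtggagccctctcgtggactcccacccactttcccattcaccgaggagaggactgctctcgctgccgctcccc
Egr2, chr10:67537619-67537918, plus strand: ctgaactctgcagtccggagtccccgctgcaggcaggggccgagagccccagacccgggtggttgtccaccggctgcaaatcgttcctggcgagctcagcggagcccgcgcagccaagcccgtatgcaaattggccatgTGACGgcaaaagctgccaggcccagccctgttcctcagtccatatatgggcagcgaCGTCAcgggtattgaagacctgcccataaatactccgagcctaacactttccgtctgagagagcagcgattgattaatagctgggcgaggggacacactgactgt
Egr4, chr6:85513540-85513839, minus strand: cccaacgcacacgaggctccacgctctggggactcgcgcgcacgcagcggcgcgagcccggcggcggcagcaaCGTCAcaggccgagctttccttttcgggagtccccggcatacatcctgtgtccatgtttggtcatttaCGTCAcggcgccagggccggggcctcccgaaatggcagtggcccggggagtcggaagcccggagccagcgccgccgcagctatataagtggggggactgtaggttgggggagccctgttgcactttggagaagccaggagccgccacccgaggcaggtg
Nr4a1, chr15:101266596-101266895, plus strand: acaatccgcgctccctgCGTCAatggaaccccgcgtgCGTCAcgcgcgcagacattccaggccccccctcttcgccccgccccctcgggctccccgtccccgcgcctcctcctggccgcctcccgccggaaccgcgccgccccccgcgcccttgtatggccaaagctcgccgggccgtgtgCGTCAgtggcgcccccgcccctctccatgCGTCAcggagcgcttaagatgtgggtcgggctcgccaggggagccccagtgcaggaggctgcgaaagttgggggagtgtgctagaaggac

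The Nr4a1 window holds 4 matches, with first bases from -233 to -40 relative to the start. Egr2 has 2 matches, at -111 and -55, Egr4 has 2, at -177 and -109, and Bdnf has 1, at -35. The half-site on either strand was found in 15 of 20 immediate early genes with a promoter in the table (18 of 32 promoters, 56.2%) and in 6837 of all 32851 promoters of the same length (20.8%). The full palindrome TGACGTCA, which contains both half-sites, was found in 2 of the 32 (6.25%) and in 588 of all (1.79%). These are matches of letters and not measured binding.

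Bdnf, the neurotrophin whose promoter is shown, read 8.97, 8.73, 8.88 and 8.77 in TgS and 8.30, 8.60, 8.32 and 8.32 in TgR. All TgS arrays were above all TgR arrays, and TgR control 2 was the nearest. The difference was 0.45 ± 0.09 (adjusted p = 0.00442) and 0.50 ± 0.12 within controls 3-4 (adjusted p = 0.0245), and 0.50 after MPTP (adjusted p = 0.0802). Egr1, a zinc finger transcription factor, read 13.02, 12.98, 12.53 and 12.51 in TgS and 11.57, 12.51, 11.44 and 12.09 in TgR. TgR controls 1 and 3 were the low arrays, and TgR control 2 reached the level of TgS controls 3 and 4, so the groups overlapped. Within controls 3-4 it was 1.69-fold higher (0.75 ± 0.20, adjusted p = 0.038). Dusp6, a phosphatase that switches off ERK, read 10.96 to 11.22 in the 4 TgS arrays, against 10.28, 10.83, 10.60 and 10.70, 0.48 ± 0.12 and 0.54 ± 0.15 (adjusted p = 0.0497). These 3 were the members called higher in both fits.

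Egr2 showed the largest difference of the list over 29 arrays. It read 9.34, 8.90, 8.60 and 8.08 in TgS and 6.24, 8.32, 6.26 and 7.33 in TgR, 3.23-fold higher over 29 arrays (1.69 ± 0.39, adjusted p = 0.00696) and 1.54 ± 0.46 within controls 3-4 (adjusted p = 0.0661). Arc, which encodes a synaptic capsid-like protein, followed the same order of arrays, at 11.81, 11.52, 11.46 and 11.21 against 9.62, 11.10, 9.71 and 10.37, 1.30 ± 0.34 and 1.30 ± 0.42. The TgR arrays formed the same ranks in both genes, with controls 2 and 4 above controls 1 and 3. Nr4a1, a nuclear receptor, read 11.59, 11.57, 11.35 and 11.14 against 9.88, 10.97, 10.44 and 10.89, 0.87 over 29 arrays (adjusted p = 0.0177) and 0.58 within controls 3-4 (adjusted p = 0.285). Egr4 was 0.62 and 0.67 higher (adjusted p = 0.0127 and 0.0765). Fos, the classical marker of neuronal activation, read 11.14, 11.25, 10.58 and 10.29 against 9.58, 10.84, 9.05 and 10.15, and was not called in either fit (0.91, adjusted p = 0.0561, and 0.84, adjusted p = 0.313).

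**Figure D4:**
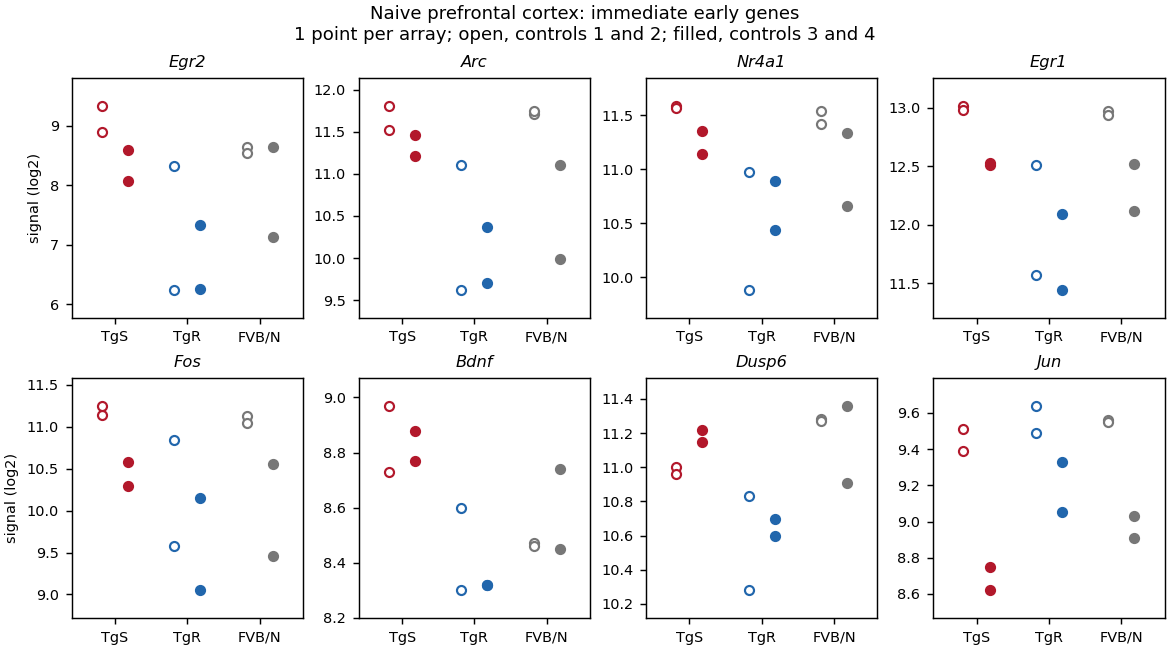
Log2 signal per array of 8 immediate early genes in TgS, TgR and FVB/N naive prefrontal cortex; open points are controls 1-2, filled points controls 3-4. For Egr2 and Arc the TgR arrays spread widely (6.24 to 8.32 and 9.62 to 11.10), and Jun is the one panel with TgS lower.

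Not all members moved up. Jun, a partner of Fos, read 9.51, 9.39, 8.75 and 8.62 in TgS and 9.49, 9.64, 9.05 and 9.33 in TgR and fell in both fits (-0.31 ± 0.09 and -0.50 ± 0.11). With the block its adjusted p over 29 arrays was 0.0568. The synaptic pentraxin gene Nptx2 fell within controls 3-4 (-0.54, adjusted p = 0.0102), and Btg2 and Per1 were at 0.06 and 0.16 over 29 arrays. Homer1 and Nr4a2 were higher chiefly in controls 1-2 (2.65 against 0.51, and 2.46 against -0.14). For Homer1 this rests on the probe set used. Another Homer1 probe set went the same way (1.70 against 0.58, uncalled). A further probe set was 0.55 higher in controls 1-2 and 1.02 higher in controls 3-4, where it was called. The mean over the 27 genes was 9.35, 9.30, 8.72 and 8.60 in TgS, 8.29, 8.87, 8.19 and 8.50 in TgR, and 9.09, 9.10, 8.36 and 8.80 in FVB/N. The TgR arrays were the lowest of the 3 strains in controls 1-2. In controls 3-4 the FVB/N range overlapped that of TgR and took in both TgS arrays. After MPTP 2 members rose in limma (against 0.637% of all genes called higher) and the median was 0.52, with Egr2 at 1.76, Arc at 1.5 and Fos at 1.41, none of these 3 called. Without TgR control 1 the 29-array count of rises was 6, and within controls 3-4 it was 0 without TgR control 3, TgS control 3 or TgS control 4 and 1 without TgR control 4.

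Cortical projection neuron genes and interneuron genes differed in their counts. Of 19 cortical glutamatergic genes 6 rose and 1 fell over 29 arrays (4.78% and 14.4% of all genes), and limma called 0 within controls 3-4 (2 higher and 1 lower at an unadjusted p under 0.05). Among them Neurod2, a transcription factor of projection neurons, differed by 1.96 in controls 1-2 and by 0.20 in controls 3-4, and Bcl11b by 5.14 and -0.07. The block left 2 rises over 29 arrays, as did leaving out TgR control 1 or 2 or TgS control 1 or 2. Of 16 GABAergic interneuron genes limma called 0 over 29 arrays (1 higher and 1 lower at an unadjusted p under 0.05), and within controls 3-4 Pvalb, the calcium buffer of fast-spiking cells, rose (0.66 ± 0.13, adjusted p = 0.00921) while Calb2, Dlx2, Dlx5 and Reln fell, 5 of 16 against 5.47% of all genes. The block kept Pvalb and left 0 of the 4 falls. Falls numbered 6 without TgR control 3, 1 without TgS control 3 and 0 without TgR control 4 or TgS control 4, and Pvalb was called without TgR control 3 and in none of the other 3. Calb2, calretinin, read 11.87, 11.63, 10.04 and 9.39 in TgS and 11.70, 11.20, 11.10 and 11.84 in TgR. TgS controls 3 and 4 were the low arrays.

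The olfactory bulb genes moved with these 4. Of 7 measured, 4 fell within controls 3-4 (Cdhr1, Doc2g, Eomes and Th, against 3.86% of all genes) and limma called 0 over 29 arrays (1 higher and 1 lower at an unadjusted p under 0.05). Cdhr1, a cadherin of mitral and tufted cells, read 11.02, 10.72, 8.08 and 6.45 in TgS and 10.57, 10.28, 9.78 and 10.77 in TgR, -3.01 ± 0.67 within controls 3-4 (adjusted p = 0.0164). The mean over the 7 genes was 9.52, 9.16, 7.49 and 6.81 in TgS and 9.13, 8.85, 8.24 and 9.09 in TgR, so TgS control 4 was the lowest array and TgS control 3 the next. In FVB/N it was 8.30, 8.83, 7.88 and 7.74. Within controls 3-4 FVB/N thus lay between the TgS and the TgR arrays, and TgR control 4 was the highest array. Calretinin, Dlx2, Dlx5, Reln and tyrosine hydroxylase are all expressed in bulb neurons. The part of olfactory bulb tissue in these 4 interneuron calls was not tested. With the block, and with a trended robust variance, 0 bulb genes were called within controls 3-4. Leaving out TgR control 4 or TgS control 4 left 0 lower and leaving out TgS control 3 left 1.

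Of 11 striatal projection genes limma called 0 in both fits (1 higher and 1 lower, then 2 lower at an unadjusted p under 0.05), and of 11 choroid plexus and ependymal genes also 0 in both (1 lower, then 0). Of 8 blood cell genes Ighm rose in both fits, and Ptprc (-0.47) and Hba-a1 (-0.24) fell over 29 arrays alone.

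The endogenous cholinergic system showed no called difference. Mouse Ache read 9.11, 9.04, 8.73 and 8.80 in TgS and 9.17, 9.35, 8.66 and 8.83 in TgR. The lines overlapped, and the difference was -0.08 ± 0.10 (adjusted p = 0.594) and 0.02 ± 0.12 (adjusted p = 0.951). This probe set is annotated to the mouse gene. Whether it also detects the human transcripts was not tested, and the labels were not checked through it. Bche, butyrylcholinesterase, read 5.46, 5.43, 5.40 and 5.40 against 5.39, 5.64, 5.52 and 5.40, -0.06 ± 0.06 and -0.06. Of 16 cholinergic genes, among them muscarinic and nicotinic receptor subunits and the anchor gene Prima1, limma called 0 in both fits (1 lower over 29 arrays, 4 higher and 1 lower within controls 3-4 at an unadjusted p under 0.05).

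Chaperone genes rose in 6 of 29 cases over 29 arrays and in 2 of 29 within controls 3-4, with none lower (4.78% and 1.61% of all genes rose; median 0.09 and 0.10). Hspa5, the endoplasmic reticulum chaperone BiP, read 11.98, 11.75, 11.87 and 11.77 in TgS and 11.58, 11.72, 11.41 and 11.51 in TgR. The groups came closest between TgS control 2 and TgR control 2, and the difference was 0.29 ± 0.07 (adjusted p = 0.00724) and 0.36 ± 0.09 (adjusted p = 0.0236), or 0.0592 with the block within controls 3-4. It was 0.53 after MPTP (adjusted p = 0.00508). Dnajb5, a cochaperone, differed by 0.30 and 0.44, and with the block its adjusted p over 29 arrays was 0.0672. After MPTP 5 chaperone genes rose (0.637% of all genes). The block left 4 calls over 29 arrays and 1 within controls 3-4. Leaving out any array of controls 3-4 left 0 calls there, and leaving out TgR control 2, TgS control 1 or TgS control 3 left 3 over 29 arrays.

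Of 22 antioxidant genes 4 rose and 6 fell over 29 arrays (4.78% and 14.4% of all genes), and 2 rose and 1 fell within controls 3-4 (1.61% and 3.86%). The falls over 29 arrays were 3 with the block, 2 without TgR control 1 and 3 without TgR control 2, TgS control 1 or TgS control 2, and within controls 3-4 there was 1 rise and no fall without TgR control 4, TgS control 3 or TgS control 4. Glo1 and Gsr, glutathione reductase, rose and Gpx3, a secreted glutathione peroxidase, fell in both fits. Gsr read 9.20, 9.02, 8.77 and 8.78 in TgS and 8.60, 8.66, 8.45 and 8.39 in TgR, 0.42 ± 0.06 and 0.36 ± 0.08, and it was 0.38 higher after MPTP (adjusted p = 0.0186). Gpx3 read 8.67, 8.68, 7.73 and 7.74 against 9.03, 9.40, 8.13 and 8.34, -0.52 ± 0.10 and -0.50 ± 0.12 (0.0798 with the block in controls 3-4). Its sign was opposite in the caudate-putamen, where TgS was 0.64 higher (adjusted p = 0.0244). The glutathione synthesis genes Gclc and Gclm rose over 29 arrays (0.70 and 0.42) and were at 0.05 and 0.08 within controls 3-4.

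Of 18 glucocorticoid-induced genes limma called 0 in both fits (7 higher and 1 lower, then 4 higher at an unadjusted p under 0.05), with medians of 0.10 and 0.15. Of 31 proteasome subunits 6 rose over 29 arrays, led by Psmd1 (0.98, but 0.18 in controls 3-4), and Psmc6 rose within controls 3-4 (0.29). Of 20 synaptic vesicle genes 4 rose over 29 arrays and 2 within controls 3-4. Among these, Syt4, a synaptotagmin, was called in both (0.39 and 0.45) and lost its call with the block in each (adjusted p = 0.081 and 0.052), and Vamp1 was called within controls 3-4 (0.39). Of 15 circadian genes Clock and Bhlhe40 rose and Tef and Dbp fell over 29 arrays, with 0 called in limma within controls 3-4 (3 higher at an unadjusted p under 0.05). Of 3 metallothioneins Mt3 fell over 29 arrays. Of 50 respiratory chain genes 3 rose and 2 fell over 29 arrays, and of 26 ribosomal protein genes 1 rose and 2 fell. Within controls 3-4 limma called 0 in both lists (6 higher, and 6 lower, at an unadjusted p under 0.05). Of 4 sex-linked genes Kdm5d fell over 29 arrays (-0.33). It read only 3.76 to 4.32 in controls 1-2, against 7.29 to 7.63 in controls 3-4, where it was not called (-0.28). Its other probe sets were uncalled over 29 arrays (-0.01 and 0.08). The shares of all genes were 4.78% rising and 14.4% falling over 29 arrays, and 1.61% and 3.86% within controls 3-4. Under the block, 3 proteasome and 2 vesicle genes and Clock and Bhlhe40 kept a rise over 29 arrays, Mt3 kept its fall, no circadian, respiratory chain, ribosomal or sex-linked gene fell, and no gene of these lists was called within controls 3-4. Without TgS control 2, 3 proteasome, 1 vesicle and 2 circadian genes rose and none of the circadian, respiratory chain and ribosomal genes fell. Without TgR control 2, 3 proteasome, 2 vesicle and 2 circadian genes rose and again none of those fell. Without TgR control 1 or TgS control 1, no circadian or respiratory chain gene fell.

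Receptor, channel and splicing genes had fewer calls within controls 3-4 than over 29 arrays, as had all genes (5.47% against 19.2%). Of 17 glutamate and GABA receptor genes 4 rose and 2 fell over 29 arrays, with 0 called in limma within controls 3-4 (2 higher and 2 lower at an unadjusted p under 0.05). Gria2, an AMPA receptor subunit, differed by 2.92 in controls 1-2 and 0.14 in controls 3-4, and Gabrb1 by 3.68 and 0.04. Of 21 potassium channel genes 5 rose and 1 fell over 29 arrays and 1 fell within controls 3-4, with Kcna1 at 3.89 and 0.11. Of 35 splicing genes 2 rose and 6 fell, and within controls 3-4 Ptbp1 fell (-0.34). The block left 2 rises and 1 fall among the receptor genes, 3 and 1 among the channels and 2 and 1 among the splicing genes over 29 arrays, and within controls 3-4 it left 0 channel and splicing calls and gave 1 fall among the receptor genes. Without TgS control 2 the 3 lists had 1 and 1, 3 and 1, and 2 and 1, without TgR control 1 they had 2 and 1, 3 and 2, and 2 and 3, without TgR control 2 or TgS control 1 they had 3 and 1, 3 and 1, and 2 and 3, and without TgR control 4 the splicing genes had 4 and 2. Rbfox1, a neuronal splicing regulator, read 12.44, 12.39, 10.06 and 10.09 in TgS and 7.19, 6.86, 9.92 and 9.59 in TgR. Within controls 3-4 the lines were 0.32 apart (adjusted p = 0.531).

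The line difference itself differed between the sets for 4493 transcripts (19.9%), 2602 of them more positive in controls 3-4 and 1891 more negative. The 8 genes with the smallest p were all near each other in level between the lines in controls 3-4 and far higher in TgS in controls 1-2. Nfix, a transcription factor of neural progenitors and neurons, read 11.35, 11.32, 6.81 and 6.97 in TgS and 6.57, 6.86, 6.83 and 6.94 in TgR. Only the 2 arrays TgS controls 1 and 2 stood out, by 4.62 against 0.01 within controls 3-4 (adjusted p of the difference between sets = 1.97e-14). Pura, a single-stranded nucleic acid binding protein, read 12.18, 12.15, 7.50 and 7.61 against 7.94, 8.04, 7.74 and 7.87. The kinase gene Pak3, Rasal2, Klf7, Bbip1, the coactivator gene Ppargc1b and AI504432 had the same shape, with 9.51, 9.32, 4.37 and 4.14 in TgS for AI504432.

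**Figure D5:**
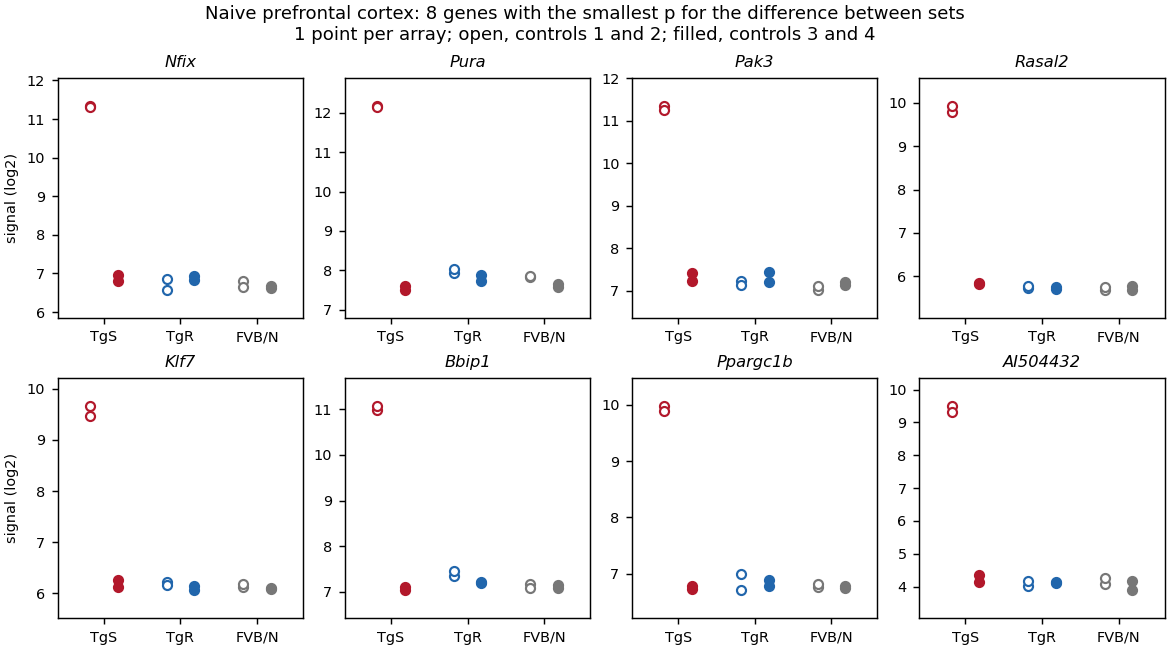
Log2 signal per array of the 8 genes with the smallest p for a line difference that differs between the sets, in TgS, TgR and FVB/N naive prefrontal cortex; open points are controls 1-2, filled points controls 3-4. In each panel TgS controls 1-2 lie far above the other arrays, such as 11.35 and 11.32 for Nfix against 6.57 to 6.97 in the other TgS and TgR arrays.

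Of the 379 transcripts raised in TgS controls 1-2 above every other array, 365 were called over 29 arrays and 16 within controls 3-4. They were the representative of 113 genes, of which 53 had several probe sets, and in 40 of these 53 another probe set of the gene was not raised in that way. The genes were long, with a median genomic span of 97.2 kb over 112 genes with a RefSeq span, against 20.1 kb over all 12377. Of the 1084 transcripts called within controls 3-4, 737 (68.0%) had the same sign in controls 1-2. There, 408 of the 1084 (37.6%) were called with the same sign and 108 with the opposite sign. Of all transcripts, 36.2% were called in controls 1-2 in either direction. That share counts both signs, so it compares with the 408 plus the 108 and not with the 37.6% alone.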

How the data were processed

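Total RNA was measured on Affymetrix arrays. The authors deposited log2 signals of 22690 probe sets for 29 arrays, for which the submitters' processing notes name RMA, Affymetrix Expression Console and Affymetrix Power Tools. Versions are not given in the sources used, and no detection calls were used, so the number of arrays limits the precision. Median log2 signals were 7.61 to 7.78. After 64 control probe sets were set aside, 22626 were tested. A gene (12393 in all) is its single-symbol probe set with the highest mean over all arrays; 20380 probe sets carried 1 symbol, 691 several and 1555 none.

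limma 3.58.1 (R 4.3.3; lmFit and eBayes, two-sided, Benjamini-Hochberg over 22626, call at an adjusted p under 0.05) was fitted to 29 arrays with 12 group means and a set term (16 residual degrees of freedom). It was also fitted without the 6 naive prefrontal controls 1-2 for controls 3-4 (23 arrays, 11 degrees of freedom), and with 15 group means for controls 1-2 and for the difference between sets. Groups lend each other their spread. The fits were tested on simulated data with known changes.

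The named genes were the 12 largest differences each way among genes called in both fits with arrays not overlapping, Ache, Bche, up to 4 members per list by smallest p, and the 8 smallest p between sets; further list members were named after their values were seen. The comparison, lists and genes were chosen with earlier results of these data known. Replicate numbers were checked for pairing. Deviations of same-numbered TgS and TgR arrays from their group means correlated at 0.194 to 0.423, and those of different numbers within a set at 0.311 to 0.465. A difference shared by a set could give either, and within sets the same-number correlations were -0.413 and -0.0517. Alternatives were quantile normalization, a filter on low signal, a trended robust variance, array weights, no set term, the replicate block, fewer arrays, the mean of probe sets and leaving out each array. Promoters came from a RefSeq table.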

Additional observations from a re-analysis of the deposited data

Results flagged for a closer look

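The size of the TgS minus TgR difference differed between the sets, by the interaction test in limma, for 4493 transcripts. The values here are the difference within controls 3-4 minus that within controls 1-2, on the log2 scale. Among the 24 genes with the largest line differences, the increase was smaller in controls 3-4 for Smarcc1 (-2.19), Snx16 (-2.06), Cacng2 (-1.89), Pde4a (-1.50) and Cldnd1 (-0.77) and larger for Baiap2l1 (1.71) and Ighm (1.67). The reduction was larger in controls 3-4 for Gem (-1.12), Gprc5b (-0.79) and Eri2 (-0.49). These values are those of 1 probe set per gene. Another Eri2 probe set went the other way, at -0.75 in controls 3-4 and -1.12 in controls 1-2. So did another Cldnd1 probe set, 0.47 higher in controls 3-4 and 0.08 higher in controls 1-2.

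The 8 genes chosen by that test were Nfix (-4.62), Pura (-4.42), Pak3 (-4.13), Rasal2 (-4.02), Bbip1 (-3.76), Klf7 (-3.28), Ppargc1b (-3.17) and AI504432 (-5.20). Among the cell type genes, the reduction was smaller in controls 3-4 for Slc1a3 (0.35) and Lum (0.80) and larger for Islr (-0.93).

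Single arrays stood apart from the other 3 of their line for 3 genes. TgR control 1 read 7.29 for Pde4a, TgS control 1 read 9.44 for Mocs2 and TgR control 2 read 8.60 for Bdnf. Chance alone gives such a gap in about 1 in 20 groups.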

How the results depend on the processing

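The 4210 calls over 29 arrays became 2117 with array weights, 1704 without the set term, 2243 with the replicate block, 349 in the 8 compared arrays, 630 in the 12 naive prefrontal arrays and 2737 in the 18 prefrontal arrays, and ran from 2086 to 5409 when an array was left out. The 1084 calls within controls 3-4 became 1999 with array weights, 548 with the replicate block and 320 in the 4 arrays alone, and ran from 196 to 938. The 8196 calls within controls 1-2 became 4094 with array weights and 1993 in the 4 arrays alone (5516 to 8745 with an array left out), and the 4493 calls for the difference between sets became 2925 and 2141 (3205 to 5985). Fits with fewer arrays have fewer residual degrees of freedom; the cause of the other changes was not tested. The replicate block kept the transcript counts within controls 1-2 (7240) and between sets (3555) within 1.5 times. Its effect on the gene lists stands beside them. The gene lists lost more calls in the fit of the 8 compared arrays alone, where 62 transcripts were higher and 287 lower. It called lower 4 astrocyte, 3 endothelial and mural, 3 meningeal, 2 myelin and 4 interferon and MHC genes. Only 2 immediate early genes were called higher there, and limma called 0 microglia, cortical glutamatergic, chaperone and proteasome genes. Over all alternatives run, 26 of 106 named genes called over 29 arrays and 21 of 46 within controls 3-4 kept their call and direction; the mean of probe sets reversed Slc1a3 (0.21), Aqp4 (0.31) and Celf2 (0.87). The uncalled Ache difference within controls 3-4 ran from -0.065 to 0.105 with an array left out, below 0 without TgR control 3 or TgS control 4 (-0.015).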
